A study of Mus musculus with 3 samples.

Results

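Immediate early genes and the cytosolic heat shock genes were followed in mouse bone marrow stroma, on 3 single-colour Affymetrix arrays. The set was given by name and held 44 genes. A gene was measured where a probe set (a group of probes reporting 1 transcript) carried its symbol and no other, and the brightest such probe set stood for it. This gave 42 of the 44, among 19938 genes measured in all. Hspa1b and Hsp90ab1 were not analysed here, the former because the probe set that carries its symbol also carries that of Hspa1a.

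The arrays compare 2 stromal populations at baseline, in a study of which marrow cells supply the chemokine CXCL12 to blood stem cells. CXCL12-abundant reticular (CAR) cells, the reticular cells rich in that chemokine, came from CXCL12-GFP knock-in mice, with 2 replicate arrays from 2 mice. The other array holds PDGFRa+ Sca+ CD45- lineage- cells, called PaS here, combined from 3 Prx1-Cre Rosa26Ai9/+ Cxcl12gfp/+ mice. Prx1-Cre is a Cre driver of limb mesenchyme, Rosa26Ai9 is a fluorescent reporter of its activity, and every mouse carried GFP at the Cxcl12 locus; ages were not given in the labels. Marrow came from tibia, femur and pelvis, and cells were sorted by flow cytometry into lysis buffer and frozen. Genotype differs together with cell type, the PaS side is 1 pooled array, and its spread is unknown.

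Immediate early genes are switched on within minutes of a growth factor, stress or mechanical signal, by transcription factors that are already present in the cell, without new protein synthesis. The first to respond are themselves transcription factors, such as the FOS and JUN proteins that pair as AP-1, the zinc finger EGR proteins and the orphan nuclear receptors NR4A. A second layer turns the signal off again: phosphatases of MAP kinases, proteins that destroy short-lived mRNAs, and inhibitors of cytokine and NF-kB signalling. Heat shock genes answer a different alarm, unfolded protein, through the factor HSF1, and encode chaperones. Both programmes are also known to be set off in cells while a tissue is taken apart for sorting; the labels do not give the time from marrow to lysis.

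Sort markers were read first. Cxcl12 stood at 10.94 and 11.11 log2 intensity on CAR arrays 1 and 2 and at 7.76 on the PaS array, and all 10 CAR stroma markers were called higher in CAR cells. Pdgfra, which gates PaS cells, was at 7.52, 7.97 and 4.33, and Ptprc, which encodes CD45, at 5.11, 5.01 and 8.27, in the same order. Ly6a, which encodes Sca-1, was not analysed here. Of the 7 measured markers of Sca-1+ PDGFRa+ progenitors, 6 were lower on both CAR arrays and 4 were called lower, among them Dpt, a dermal matrix protein (2.60 and 2.27 against 8.10), Thy1 (3.56 and 3.69 against 7.67), Cd34 and Dpp4, which run with the PaS label. Pdgfra and Ptprc run against it, so that array is named below as the array labelled PaS. Blood cell markers were brighter there: the summed intensity of 13 neutrophil genes was 3150 and 2860 on the CAR arrays against 16900, and that of 10 pan-leukocyte genes 604 and 859 against 3290. So were markers of other kinds: the sum of 7 cell cycle genes was 109 and 103 against 529, and that of 8 endothelial genes 126 and 111 against 315. All 8 endothelial genes were lower on both CAR arrays, and 3 were called. All 13 neutrophil and all 10 pan-leukocyte markers were lower on both CAR arrays, and 11 and 8 of them were called. Blood cells make many immediate early transcripts themselves; the part of these cells in any result below was not tested. In sorted bulk samples, fewer cells of a type and less RNA per cell cannot be told apart.

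Of the 42 genes, 12 were called higher in CAR cells and 1 lower, relative to the array labelled PaS (limma, adjusted p under 0.05). Over all 19938 genes, 8.56% were called higher and 6.42% lower. The 12 were Zfp36l1, Egr2, Ccn2, Socs3, Nr4a3, Ccn1, Egr1, Gadd45b, Klf6, Fosb, Jun and Zfp36, and the single lower gene was Gadd45a. At least 2-fold apart on both CAR arrays were 13 genes above and 1 below, against 10.9% and 8.92% of all genes. The median CAR minus PaS difference was 0.68 log2 units over the 42 genes and -0.10 over all genes. Both CAR arrays lay above the array labelled PaS for 27 genes and below it for 7, and its value fell between them for 8; over all genes these shares were 37.4%, 46.8% and 15.8%. These genes are bright: all 42 lay at or above the median level of all genes, 3.78, where 16.6% of genes were called higher and 4.06% lower and 58.9% had both CAR arrays above. Quantile normalization, which gives the arrays the same distribution of values, left 10 called higher and 5 lower (13.2% and 14.2% of all genes) and a median of 0.10 over the 42. With 16 added to each intensity before the log, no gene of the 19938 passed limma's adjustment (smallest adjusted p = 0.0539, 5785 genes at an unadjusted p under 0.05, 20 of them among the 42).

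**Figure D1:**
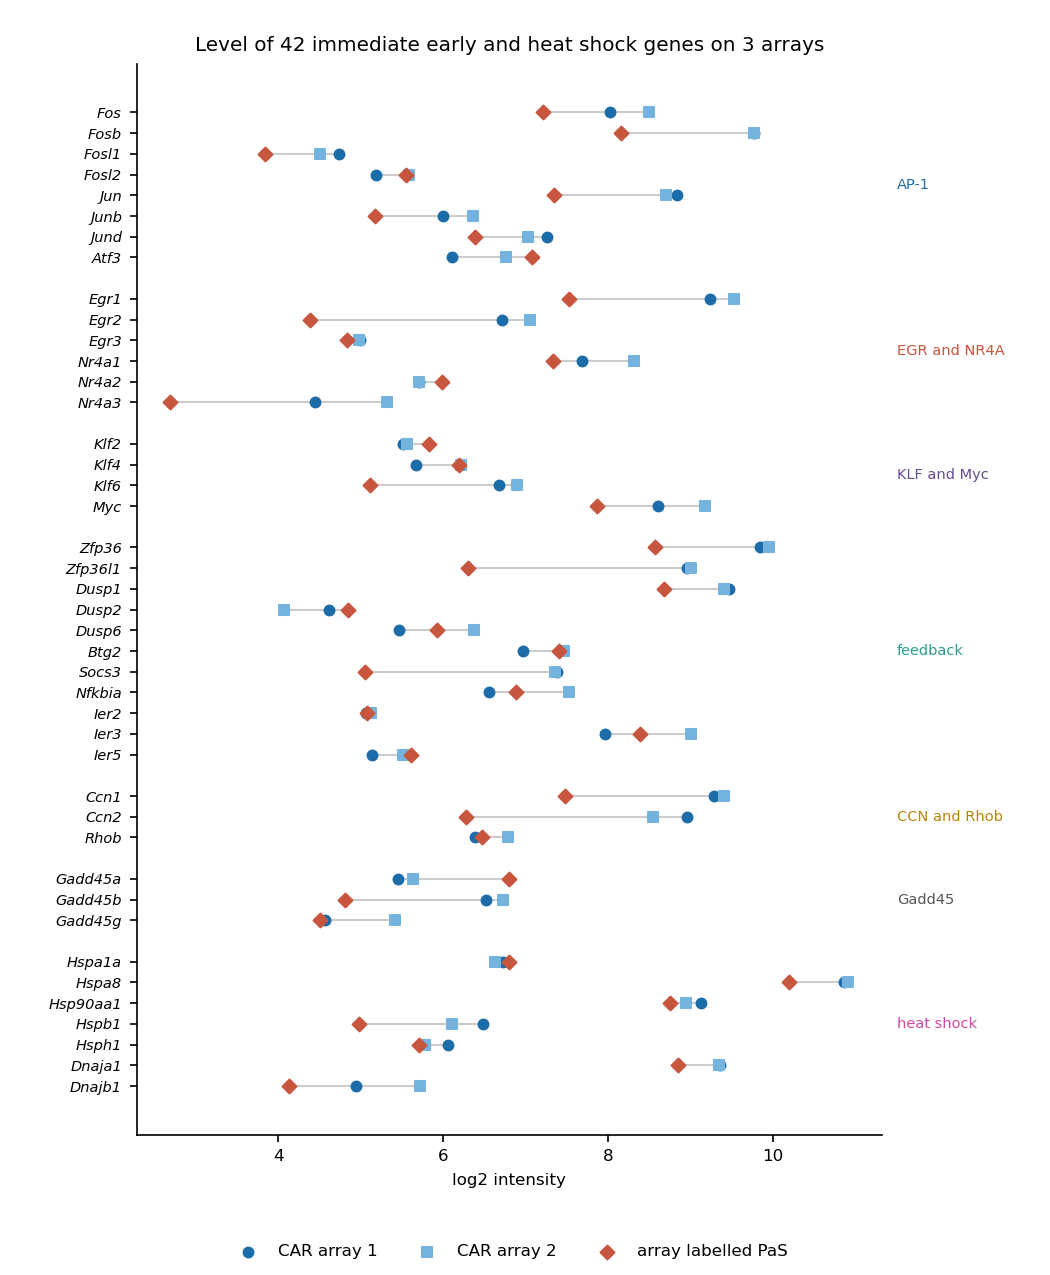
Log2 intensity (horizontal axis) of the 42 measured genes, 1 row a gene, on CAR array 1 (circles), CAR array 2 (squares) and the array labelled PaS (diamonds), grouped by role; the grey line spans the 3 values. Egr2, Zfp36l1, Socs3 and Ccn2 stand far right of their diamonds, Gadd45a stands left of its diamond, and the diamonds of Ier3, Nfkbia and Dusp6 lie between the CAR arrays.

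By role, the calls were as follows, beside 8.56% of all genes called higher and 16.6% of those with a mean at or above 3.78. Among the transcription factors, 2 of 8 AP-1 genes, 3 of 6 EGR and NR4A genes and 1 of 4 in the KLF and Myc group were higher. Of 11 feedback genes 3 were higher, of the 3 CCN and Rhob genes 2, of the 3 Gadd45 genes 1 with 1 lower, and of 7 heat shock genes 0 in either direction. Median differences ran from 0.09 log2 units for feedback and 0.39 for KLF and Myc, over 0.49 for Gadd45, 0.50 for heat shock and 0.90 for AP-1, to 1.26 for EGR and NR4A and 1.86 for CCN and Rhob. After quantile normalization the medians of feedback, KLF and Myc, and heat shock turned to -0.50, -0.19 and -0.07, while AP-1, EGR and NR4A, and CCN and Rhob stayed above 0 at 0.44, 0.67 and 1.31. Differences between the roles, in counts or medians, were not tested.

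**Figure D2:**
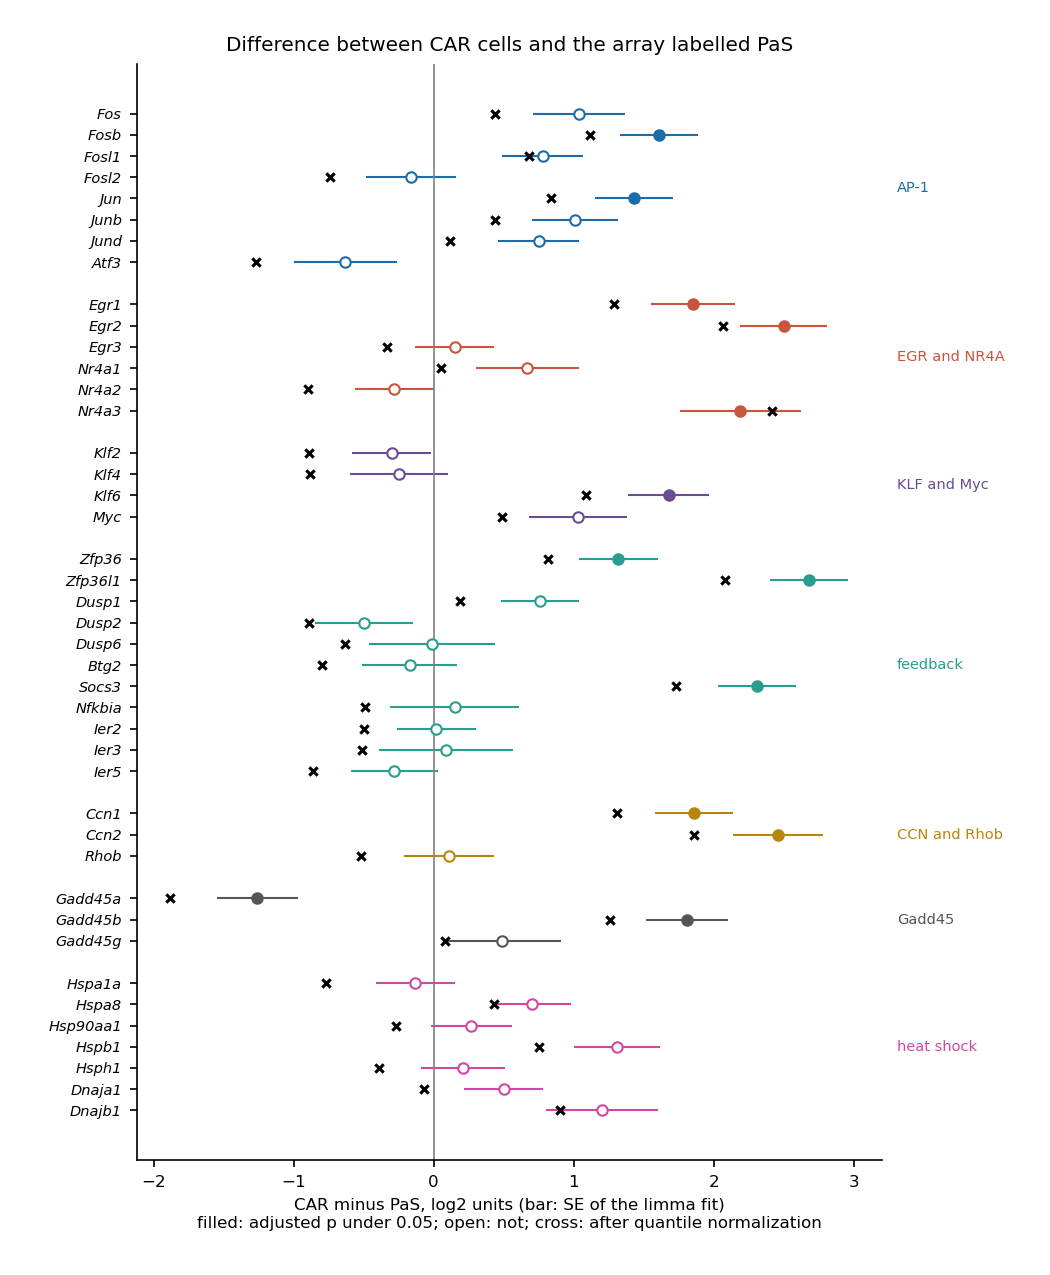
CAR minus PaS difference in log2 units (horizontal axis) of each gene, with the standard error of the limma fit; filled circles passed an adjusted p of 0.05, open circles did not, and crosses give the difference after quantile normalization. Every cross lies left of its circle except that of Nr4a3, and those of Nr4a3, Zfp36l1, Egr2, Ccn2 and Socs3 lie farthest right.

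AP-1 is a dimer of a FOS protein with a JUN protein, or of JUN proteins with each other. Fosb read 9.77 on both CAR arrays against 8.16, 3.05-fold higher (1.61 ± 0.28 log2 units, SE; adjusted p = 0.0287). Jun, the founding JUN member, read 8.84 and 8.70 against 7.34, 2.70-fold higher (1.43 ± 0.28; adjusted p = 0.0368), and was no longer called after quantile normalization (adjusted p = 0.0576; 0.0161 to 0.0608 over 7 alternatives). For both genes the CAR arrays lay close together and well apart from the third array.

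Fos, the prototype of the class, read 8.02 and 8.49 against 7.21, a difference of 1.04 ± 0.33 that missed the threshold (adjusted p = 0.0921). Junb, at 6.0 and 6.36 against 5.17 (1.01 ± 0.31, adjusted p = 0.0846), and Jund, at 7.26 and 7.03 against 6.39 (0.75 ± 0.29), likewise had both CAR arrays above. So did Fosl1, a late-induced FOS relative, at 4.73 and 4.51 against 3.84. In the opposite order stood Atf3, a stress-induced partner of JUN, at 6.11 and 6.76 against 7.07; its difference of -0.63 ± 0.37 was not called (adjusted p = 0.289), but reached -1.27 after quantile normalization (adjusted p = 0.0168; 0.0168 to 0.339 over 7 alternatives). Fosl2 overlapped, at 5.18 and 5.59 against 5.55. In 6 of the 8 AP-1 genes both CAR arrays thus lay above the array labelled PaS, Fosl2 and Atf3 being the exceptions; 37.4% of all genes, and 58.9% of those with a mean at or above 3.78, had that order too.

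EGR proteins bind GC-rich sites in promoters and NR4A receptors act without a known circulating ligand. Egr2 showed the widest difference of these factors, at 6.71 and 7.05 in CAR cells against 4.38, 5.67-fold higher (2.50 ± 0.31; adjusted p = 0.0164). Egr1, the most widely used marker of MAP kinase activity in the family, read 9.23 and 9.52 against 7.52, 3.62-fold higher (1.85 ± 0.30; adjusted p = 0.0259). Egr3 was nearly level over the arrays, at 4.99, 4.98 and 4.83. Of the 3 EGR genes 2 were thus called, both higher in CAR cells.

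Nr4a3 read 4.44 and 5.32 against 2.69, 4.55-fold higher (2.19 ± 0.43; adjusted p = 0.0370). It was the only gene of the 42 below the median of all genes on the array labelled PaS, 3.77, so the size of that fold is uncertain, and with 16 added to each intensity its difference was 1.03. Nr4a1 read 7.68 and 8.31 against 7.33 (0.67 ± 0.37, adjusted p = 0.256) and Nr4a2 5.71 and 5.70 against 5.99 (-0.28 ± 0.28, adjusted p = 0.513). Of the 3 NR4A genes Nr4a3 alone was called, and differences between the genes were not tested.

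The stretches upstream of the members' start sites were read for the sites through which these programmes are switched on, from RefSeq promoters of GRCm38.p6, which hold 35 of the 44 genes and 27025 genes in all; the 250 bases before each listed start were searched on both strands, and a gene counts once whichever of its starts matched. The other 9 had no entry and were not searched: Egr1, Ccn2, Egr3, Fosl1, Myc, Ier2, Hspa8, Hsp90aa1 and Hsp90ab1. Egr1 and Ccn2 among them were called higher, and sites farther upstream than 250 bases were not searched in any gene. The CArG box, the site of serum response factor (CC, then 6 bases of A or T, then GG), was in 1.62% of all genes and in 2 of the 35, Egr2 and Zfp36, both called higher in CAR cells. Egr2 held 2 such boxes, shown here in capitals within 30 bases on the plus strand of chromosome 10, at chr10:67537484-67537513 and chr10:67537787-67537816, and Zfp36 held 1, on the minus strand at chr7:28379267-28379296.
Egr2, first box: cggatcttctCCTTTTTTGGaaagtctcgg
Egr2, second box: gttcctcagtCCATATATGGgcagcgacgt
Zfp36: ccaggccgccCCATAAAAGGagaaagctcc
The letters GCGGGGGCG or GCGTGGGCG, to which EGR proteins bind, were in 3.47% of all genes and in 9 of the 35: Fosb, Fosl2, Nr4a1, Klf2, Klf4, Zfp36, Socs3, Dusp2 and Dnaja1. Of those 9, Fosb, Zfp36 and Socs3 were called higher in CAR cells and the other 6 were not called. Base composition was not matched in these shares, and a match of letters is a description of the window only.

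KLF factors are zinc finger proteins of growth and differentiation, and Myc drives growth and ribosome production. Klf6 read 6.68 and 6.90 in CAR cells against 5.11, 3.19-fold higher (1.68 ± 0.29; adjusted p = 0.0288). Myc read 8.61 and 9.18 against 7.86 (1.03 ± 0.35, adjusted p = 0.107). Klf2, at 5.51 and 5.56 against 5.83, and Klf4, at 5.67 and 6.22 against 6.19, were not called, with differences of -0.30 and -0.25. Klf6 was therefore the single called gene of this group, and Klf2 and Klf4 had no CAR array more than 0.03 log2 units above the array labelled PaS.

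The feedback group, in which Ier2, Ier3 and Ier5 were also placed, fell into 3 called genes and a larger uncalled remainder. Zfp36l1, which like Zfp36 binds AU-rich elements and marks mRNAs for decay, read 8.96 and 9.01 in CAR cells against 6.30, 6.43-fold higher (2.68 ± 0.28; adjusted p = 0.0129). It had the largest difference of the 42 genes. Socs3, the inhibitor of JAK kinases and of gp130 and leptin receptors, read 7.38 and 7.35 against 5.05, 4.96-fold higher (2.31 ± 0.28; adjusted p = 0.0164); its other probe set gave 7.90 and 7.24 against 4.39. Zfp36 read 9.84 and 9.95 against 8.57, 2.50-fold higher (1.32 ± 0.28; adjusted p = 0.0413), and was no longer called after quantile normalization (adjusted p = 0.0569; 0.0203 to 0.0601 over 7 alternatives). In all 3 the CAR arrays agreed within 0.11 log2 units.

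Dusp1, a nuclear phosphatase of p38 and JNK, was bright throughout, at 9.46, 9.41 and 8.68 (0.76 ± 0.28, adjusted p = 0.125). Dusp2, another nuclear phosphatase, read 4.61 and 4.07 against 4.84, and Dusp6, the cytoplasmic phosphatase of ERK, 5.46 and 6.37 against 5.92. Neither was called, and for Dusp6 the CAR arrays lay on either side. Btg2, an antiproliferative cofactor of mRNA deadenylation, read 6.97 and 7.47 against 7.40. The cyclic AMP response element TGACGTCA was in 1.77% of all genes with a promoter entry. Among the 35 genes here it was in 2, Dusp1 and Btg2, neither of them called. The stretches are on minus strands at chr17:26508597-26508626 and chr1:134079303-134079332, with the element in capitals.
Dusp1: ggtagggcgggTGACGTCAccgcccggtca
Btg2: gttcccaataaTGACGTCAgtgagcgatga

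Nfkbia, the inhibitor that NF-kB induces against itself, read 6.56 and 7.52 against 6.88. Ier3, a gene of NF-kB and ERK signalling, read 7.96 and 9.0 against 8.39. Both CAR pairs straddle the array labelled PaS, with differences of 0.15 ± 0.46 and 0.09 ± 0.48. Ier2 was flat, at 5.06, 5.12 and 5.07, and Ier5 read 5.14 and 5.51 against 5.61. Of the 11 feedback genes, 5 had the array labelled PaS between the CAR arrays, against 15.8% of all genes, and none of the 5 was called. The median of the 11 genes had no settled sign, at -0.23 with CAR array 1 alone and 0.61 with CAR array 2 alone.

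The promoter of Zfp36 held both a CArG box and an EGR site, the only member of the 35 with that pair, and is shown to its start for their spacing, with the EGR site and then the CArG box in capitals, on the minus strand at chr7:28379229-28379478. The letters TGANTCA allow any middle base and so are looser than the TRE of AP-1 itself. These letters were in 7.82% of all genes with a promoter entry. Among the 35 they were in 1, Zfp36l1, where they read TGATTCA.
Zfp36: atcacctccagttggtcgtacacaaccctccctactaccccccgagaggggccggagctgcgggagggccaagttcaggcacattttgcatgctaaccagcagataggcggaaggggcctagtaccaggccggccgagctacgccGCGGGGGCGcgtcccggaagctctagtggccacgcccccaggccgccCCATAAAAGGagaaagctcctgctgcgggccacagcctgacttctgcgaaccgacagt

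Ccn1 and Ccn2 encode secreted matricellular proteins, formerly called Cyr61 and Ctgf, which are immediate early targets of serum response factor and of YAP. Ccn2 read 8.95 and 8.54 in CAR cells against 6.28, 5.51-fold higher (2.46 ± 0.32; adjusted p = 0.0187). Ccn1 read 9.28 and 9.41 against 7.48, 3.63-fold higher (1.86 ± 0.28; adjusted p = 0.0233). Rhob, an early-induced GTPase of endosomes and actin, read 6.39 and 6.78 against 6.47 (0.11 ± 0.32) and was not called. Both secreted products were higher in CAR cells, and Rhob overlapped.

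Gadd45 proteins bind stress kinases and cell cycle regulators, and of the 3 family members 1 was higher, 1 lower and 1 not called. Gadd45b read 6.52 and 6.73 in CAR cells against 4.81, 3.52-fold higher (1.81 ± 0.29; adjusted p = 0.0256). Gadd45a, the p53 target of the family, read 5.45 and 5.63 against 6.80, 2.40-fold lower in CAR cells (-1.26 ± 0.29; adjusted p = 0.0466). It was no longer called with an intensity trend in the variance (adjusted p = 0.0599; 0.00289 to 0.0714 over 7 alternatives), and under quantile normalization its difference was -1.88. Gadd45g read 4.57 and 5.41 against 4.50, with CAR array 2 apart from the other arrays, and was not called.

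None of the 7 measured heat shock genes was called, with limma giving 2 of them, Hspb1 and Dnajb1, an unadjusted p under 0.05. The stress-inducible Hsp70 gene Hspa1a, the most sharply induced of the class, was level over the arrays at 6.72 and 6.63 in CAR cells against 6.80 (-0.13 ± 0.28, adjusted p = 0.780). Hspa8, the constitutive Hsp70, read 10.86 and 10.91 against 10.19 (0.70 ± 0.28, adjusted p = 0.148), and its 3 probe sets gave differences of 0.60 to 0.70. Hsp90aa1, the inducible Hsp90, read 9.12 and 8.94 against 8.75 (0.27 ± 0.29), or 0.27 to 0.52 over its 3 probe sets. Hspa8 and Hsp90aa1 have near-identical processed copies in the genome, which these probe sets may also read.

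Hspb1, the small heat shock protein of the actin cytoskeleton, came nearest to a call, at 6.48 and 6.11 against 4.98 (1.31 ± 0.31, adjusted p = 0.0509); 4 of 7 alternatives took it under 0.05, and its adjusted p ran from 0.0257 to 0.122 over them. Dnajb1, the inducible Hsp40 that serves Hspa1a, read 4.94 and 5.72 against 4.13 (1.2 ± 0.40, adjusted p = 0.104), and Dnaja1, its relative, 9.36 and 9.35 against 8.85 (0.50 ± 0.28). The other probe set of Dnaja1 was dimmer and gave a wider difference of 1.21, at 6.12 and 6.62 against 5.16. The nucleotide exchange factor Hsph1 read 6.06 and 5.78 against 5.71. Apart from Hspa1a, both CAR arrays thus lay above the array labelled PaS for every measured heat shock gene before quantile normalization, by 0.07 log2 units or more, an order shared by 58.9% of genes with a mean at or above 3.78 and 37.4% of all genes; after it, Hspa1a, Hsp90aa1, Hsph1 and Dnaja1 were below 0.

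HSF1 binds inverted repeats of GAA. A pair of such units, GAANNTTC or TTCNNGAA, was in 14.5% of all genes with a promoter entry. Such a pair was in 5 of the 6 heat shock genes with an entry and in 9 of the 35 genes with one. Outside the heat shock group these were Jun, Fosl2, Egr2 and Ccn1. The units of 4 heat shock genes, which with Dnaja1 make up the 5, are in capitals below: Hspb1, which held 2 pairs, on the plus strand at chr5:135887791-135887820 and chr5:135887811-135887840, and the rest on minus strands, Hspa1a at chr17:34972242-34972271, Hspa1b at chr17:34959324-34959353 and Hsph1 at chr5:149636351-149636380. The stretches of Hspa1a and Hspa1b read the same, and over their 250 bases 247 were identical.
Hspa1a: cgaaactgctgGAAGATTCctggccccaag
Hspa1b: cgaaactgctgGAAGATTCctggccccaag
Hspb1, first pair: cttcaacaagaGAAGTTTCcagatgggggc
Hspb1, second pair: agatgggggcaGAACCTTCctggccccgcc
Hsph1: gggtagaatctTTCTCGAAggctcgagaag

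Wider lists of the same pathways were counted in the same fit. Of 40 measured other immediate early genes, 7 were called toward CAR cells and 2 the other way, with a median of 0.32 log2 units; after quantile normalization 8 were higher and 8 lower, with a median of -0.12. Bcl6, a repressor of lymphoid and stromal genes, led at 7.0-fold (7.65 and 8.01 against 5.02), with Irf1, an interferon-response factor, at 4.37-fold, Id3, an inhibitor of helix-loop-helix factors, at 4.33-fold and Amotl2, a YAP target, at 3.87-fold. Outside the rule for named genes, the 2 lower genes were Hbegf, an EGF receptor ligand, 3.77-fold lower, and Mcl1, a survival protein, 2.36-fold lower.

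Of 26 other feedback inhibitors, 6 were higher and 0 lower (2 lower after quantile normalization), with a median of 0.64 (0.19 after quantile normalization). Errfi1, an inhibitor of the EGF receptor, was 4.75-fold higher (7.89 and 7.80 against 5.59), and the inhibitors of receptor tyrosine kinase signalling Spry4, Spry1 and Spred2 were 4.03-fold, 3.60-fold and 3.11-fold higher. For Spred2 the probe sets disagreed: their mean gave 0.66 log2 units, against 1.64 for the brightest. Among 20 upstream kinases and factors 3 were higher and 0 lower (3 lower after quantile normalization): Elk1 (3.59-fold), which acts with serum response factor, Yap1 (2.88-fold) and Creb1 (2.52-fold), the factor of the cyclic AMP response element.

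Of 38 further chaperones, co-chaperones and HSF factors, 6 were higher and 2 lower, with a median of 0.38 (-0.16 after quantile normalization, with 6 higher and 10 lower). St13, which links Hsp70 with Hsp90, was 4.97-fold higher, Ptges3, the Hsp90 co-chaperone p23, 3.67-fold higher and Dnajb4 3.44-fold higher. Cacybp, a partner of the ubiquitin ligase SIAH, was 3.54-fold lower and the small heat shock gene Cryab, named outside the rule, 3.43-fold lower. In each of the 4 lists the share called higher, 7 of 40, 6 of 26, 3 of 20 and 6 of 38, stands beside 8.56% of all genes and 16.6% of genes with a mean at or above 3.78.

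The replicate CAR arrays differed in these genes as well. CAR array 2 was higher for 28 of the 42 genes and CAR array 1 for 14; over all genes CAR array 2 was higher for 48.6%, and for 62.9% of those at or above the median level. By role, CAR array 2 was higher for 26 of the 35 immediate early genes and for 2 of the 7 heat shock genes. Ier3 (1.04 log2 units), Nfkbia (0.96), Dusp6 (0.92), Nr4a3 (0.88) and Gadd45g (0.84) led toward CAR array 2. Dusp2 (-0.54), Ccn2 (-0.42) and Hspb1 (-0.37) led the other way. Ier3 was the only gene of the 42 at least 2-fold apart between them, against 3.58% of all genes, and the SD of the difference was 0.40 log2 units over the 42 genes and 0.45 over all.

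The feedback group as a whole had a median of 0.11 log2 units toward CAR array 2, against 0.15 over the 42 genes. For Ier3, Nfkbia and Dusp6 the spread between the CAR arrays exceeded the distance of their mean from the array labelled PaS. Genes with the closest CAR arrays included Fosb, Egr3, Nr4a2, Dnaja1, Socs3 and Dusp1, each within 0.04 log2 units. With 1 array a mouse label, this difference has no error of its own. Pan-leukocyte markers (604 and 859) and erythroid markers (89.1 and 254) were also brighter in sum on CAR array 2, and neutrophil markers (3150 and 2860) were not. The gain in these sums came mostly from single genes, Arhgdib (8.17 and 8.84 log2 intensity) and Car1 (3.04 and 7.37). By count, 7 of 10 pan-leukocyte, 5 of 7 erythroid and 8 of 13 neutrophil markers were higher on CAR array 2. Beside them stand 48.6% of all genes and 62.9% of those at or above the median level. The part of such cells in the difference was not tested. After quantile normalization the median difference over the 42 genes turned from 0.15 toward CAR array 2 to 0.09 toward CAR array 1.

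**Figure D3:**
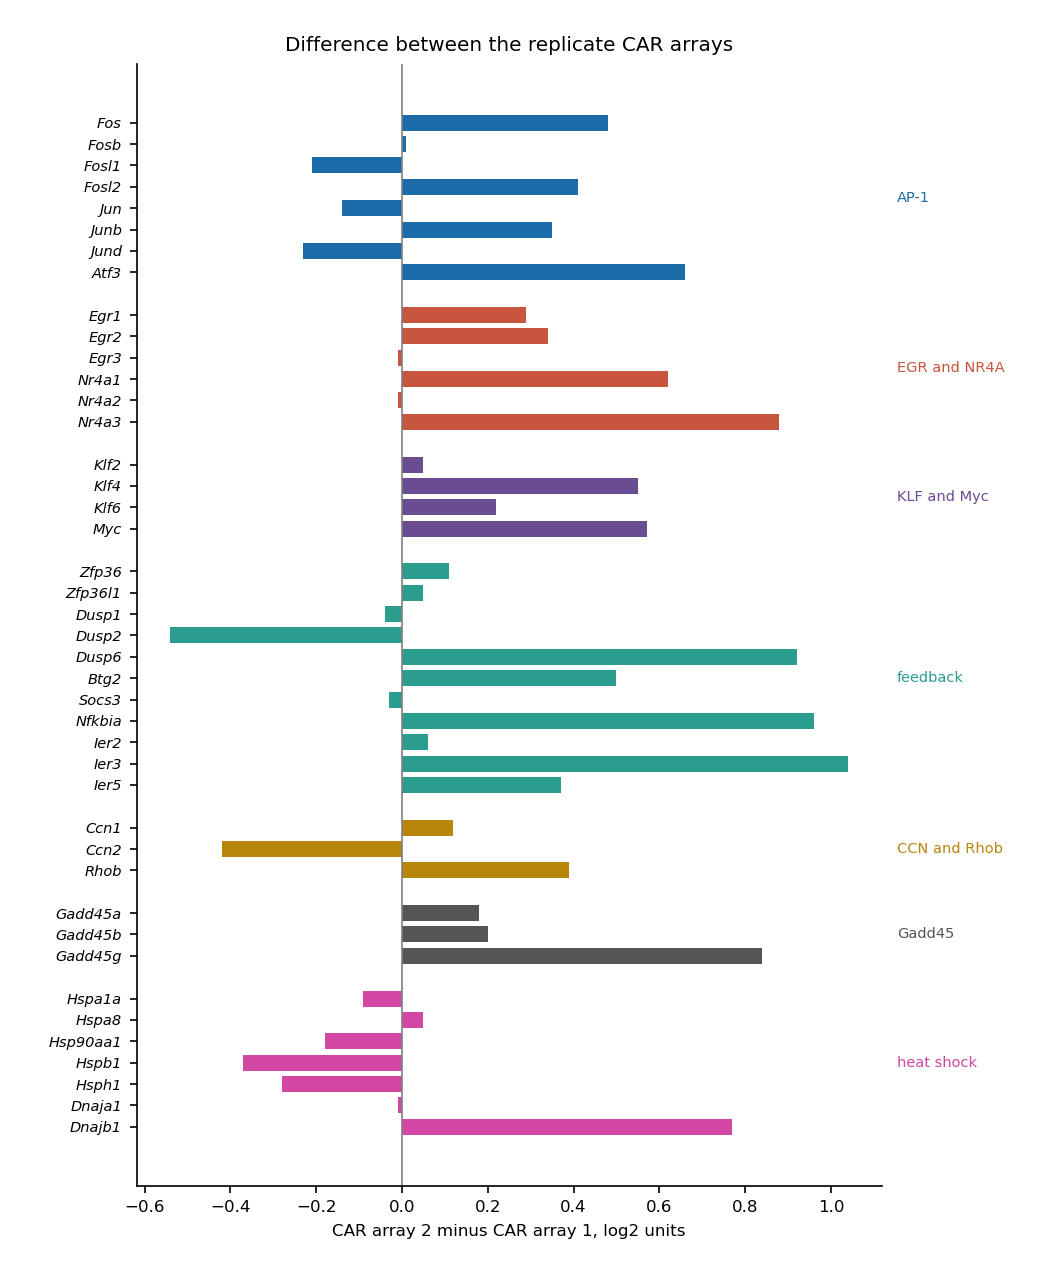
CAR array 2 minus CAR array 1 in log2 units (horizontal axis), 1 bar a gene, coloured by role. Most immediate early bars point right, toward CAR array 2, up to Ier3 at 1.04, and 5 of the 7 heat shock bars point left.

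In the values as deposited, the CAR minus PaS difference varied with level over all genes. The interquartile span over genes was 1.96 and 2.28 log2 units on CAR arrays 1 and 2, against 1.35 on the array labelled PaS, and genes with a mean at or above 3.78 had a median difference of 0.37. In level classes set after the values were seen, the 12 members with a mean of 8 or more had a median difference of 1.18 log2 units, against 0.56 for all 218 genes of that class, and 6 were called higher (30.3% of the class). The 14 members from 6 to 8 had a median of 0.71 against 0.78 for 1327 genes, and 5 were called higher (32.9%). The 16 members from 4 to 6 had a median of 0.09 against 0.39 for 7172 genes, with 1 called higher (15.4%) and 1 lower (3.88%). In the classes below 8 the members' medians were thus under those of all genes at their level, and in the brightest class the median was above. That class held the called Zfp36l1, Egr1, Ccn1, Fosb, Jun and Zfp36 and the uncalled Myc, Dusp1, Ier3, Hspa8, Hsp90aa1 and Dnaja1. The mean includes both CAR arrays, so a gene high in CAR cells is moved to a brighter class by the difference itself. Zfp36l1, Jun, Ccn1, Egr1 and Myc were below 8 on the array labelled PaS (6.30 to 7.86). The medians by class are therefore a description only. After quantile normalization the medians of all genes in these classes, from the brightest to the dimmest, were 0.03, 0.15 and 0.05. Those of the members were 0.66, 0.08 and -0.44.

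**Figure D4:**
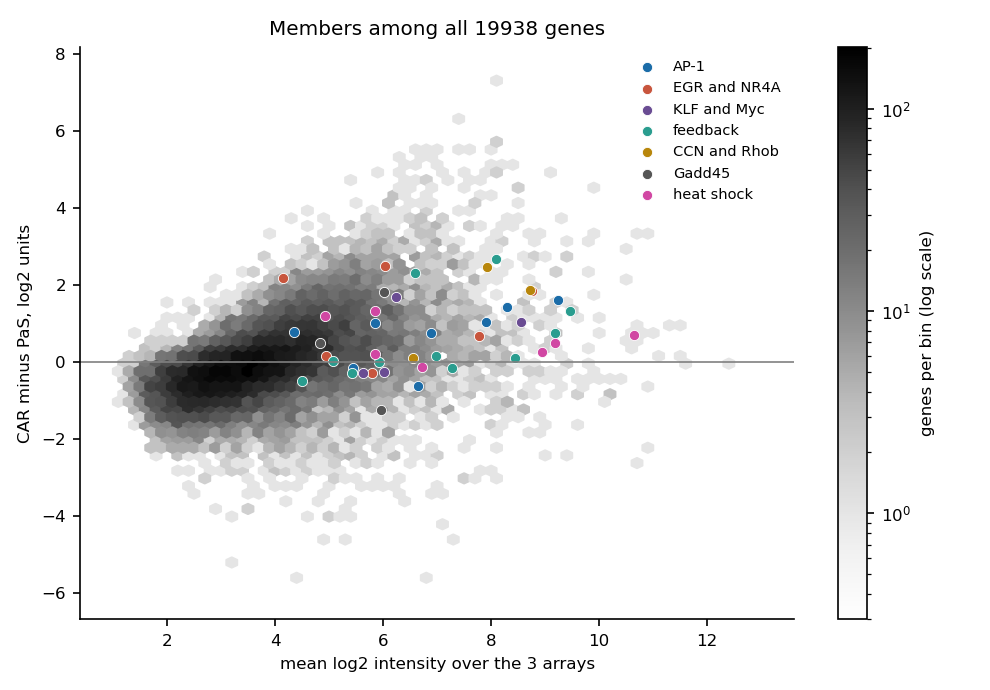
CAR minus PaS difference in log2 units (vertical axis) against the mean log2 intensity over the 3 arrays (horizontal axis); grey bins count all 19938 genes on a log scale, and coloured points are the 42 members by role. Values are as deposited. The median of all genes is 0.39 at levels from 4 to 6, 0.78 from 6 to 8 and 0.56 from 8 up, against 0.05, 0.15 and 0.03 after quantile normalization. The members lie to the right of the median level of 3.78, and Zfp36l1 at 2.68 is the highest of them.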

How the data were processed

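RNA of sorted marrow stromal cells was purified and amplified with a NuGEN whole-transcript kit from 500 pg to 50 ng, per the labels' protocols. The deposited values are linear signal intensities of probe sets, made by the authors with Affymetrix Expression Console and RMA (background correction, quantile normalization and summary), per the submitters' processing notes; no version or build is given in the sources used here. Median intensity was 11.9 and 11.3 for the CAR replicates and 12.8 for PaS. Although the notes name quantile normalization, the deposited arrays did not share 1 distribution of values. Over genes, the interquartile span was 1.96 and 2.28 log2 units on CAR arrays 1 and 2 and 1.35 on the array labelled PaS. The main fit used the arrays as deposited, without further normalization. Log2 was taken with no pseudocount. Of 35556 probe sets, 21789 carried 1 symbol, 1621 several and 12146 were unnamed here; identifiers of 21698 matched the gene table of GRCm38.p6, used for symbols only. The array has no detection calls here, and the number of arrays limits the precision.

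The fit was limma 3.58.1 in R 4.3.3 on all 3 arrays, two-sided, adjusted by Benjamini-Hochberg over 19938 genes, with 1 residual degree of freedom and 4.20 prior ones; PaS is taken to vary as CAR does. The working of the fit was tested on simulated data in which each gene had the same spread on all arrays. That test could not check the spread of PaS and lends no support to single calls. Counts by size took genes at least 2-fold apart from PaS in both CAR arrays. Every member may be named; up to 4 called genes a wider list, with the largest difference, and the sort genes were named by rule. The members, groups and lists were chosen with earlier results of these data known. Alternatives were centring, quantile normalization over genes, the mean of a gene's probe sets, an offset of 16, a filter at the median level, a trend or robust prior, and leaving out each CAR array.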

Additional observations from a re-analysis of the deposited data

How the results depend on the processing

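Among the 13 genes called, 13 of 13 kept their call with centred arrays, the mean of all probe sets, the filter at the median level and a robust prior, 12 with an intensity trend, 11 with quantile normalization and 0 with the offset of 16. New calls numbered 4 under quantile normalization (Atf3, Nr4a2, Klf2 and Ier5, all lower in CAR cells), 1 (Hspb1) under each of the first 4 settings, and 0 under the trend and the offset. Quantile normalization gave 2636 genes higher and 2831 lower instead of 1706 and 1281, and 5 members lower instead of 1. The offset gave 0 higher and 0 lower, of all genes and of members (limma, 5785 genes at an unadjusted p under 0.05, 1 of them a lower member), while genes 2-fold or more apart on both CAR arrays numbered 1036 above and 297 below, instead of 2178 and 1778, with 0 members lower instead of 1. The filter at the median level gave 2062 higher calls, 510 lower calls and 531 genes at least 2-fold lower. In the main fit, 405 of the 1281 lower calls were of genes at or above that level. The trend gave 0 lower members (1 at an unadjusted p under 0.05, adjusted p = 0.0599). At least 2-fold lower were 2 members under quantile normalization.

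Group medians under quantile normalization were 0.44 (AP-1), 0.67 (EGR and NR4A), -0.19 (KLF and Myc), -0.50 (feedback), 1.31 (CCN and Rhob), 0.08 (Gadd45), -0.07 (heat shock) and 0.10 (all members); with the offset they were 0.71 (AP-1), 0.83 (EGR and NR4A), 1.77 (CCN and Rhob), 0.49 (heat shock) and 0.55 (all members). For heat shock, centring gave 0.53 and the mean of probe sets 0.67. CAR 1 minus CAR 2, a median of -0.15 over members, was 0.09 under quantile normalization. Single genes that turned under quantile normalization, none of them called, were Egr3 (-0.33), Nfkbia (-0.49), Ier2 (-0.50), Ier3 (-0.51), Rhob (-0.52), Hsp90aa1 (-0.27), Hsph1 (-0.39) and Dnaja1 (-0.07); Dusp6 turned to 0.02 with centring and 0.01 with the offset. The cause of these changes was not tested. With 1 CAR array left out there is no residual degree of freedom and no test; genes at least 2-fold lower then numbered 2319 to 2809 and higher 2529 to 3233, members 1 and 13 to 17, the feedback median ran from -0.23 to 0.61 and that of all members from 0.59 to 0.70. No paired analysis was possible because CAR and PaS cells came from mice of different genotypes, and a shared replicate number does not pair them.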
